A study of Mus musculus with 8 samples.

Results

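The genes described are the MHC class II set of mouse tumours: the chain genes H2-Aa, H2-Ab1 and H2-Eb1, the invariant chain gene Cd74, the peptide loading genes H2-DMa and H2-Oa, and Ciita, the regulator that switches the set on. They were chosen by symbol, as 7 of the 19938 genes on the array. Earlier results of these same arrays were known when they were chosen, in particular higher values with PD-0325901, so every difference of the 7 genes between arrays with and without that drug is given as a description with no test. Each of the 7 genes had 1 probe set annotated to it alone, and no filter on low values was applied, so all 7 are accounted for.

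RNA was measured on 8 Affymetrix gene arrays from primary tumours of the peripheral nerve sheath in NPcis mice, which carry linked mutations of Nf1 and Trp53 and whose tumours serve as a model of NF1-mutant sarcoma. Every group, the vehicle group included, came from this model. The 4 groups of 2 arrays had received rapamycin with PD-0325901 (the combination), PD-0325901 alone, rapamycin alone or vehicle, in each case for 14 hours. Rapamycin, an inhibitor of the kinase complex mTORC1, was injected into the peritoneum at 5 mg/kg. PD-0325901, an inhibitor of the kinase MEK upstream of ERK, was given by gavage at 1.5 mg/kg, 2 times a day. The labels give no age, strain background or sex, and do not say whether the arrays of a group came from separate animals. P-values therefore measure only the spread between these samples.

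MHC class II molecules are pairs of an alpha and a beta chain that carry peptides from the endosome to the cell surface, where CD4+ T cells read them. Dendritic cells, macrophages and B cells make them constantly or on activation, and many other cells make them after exposure to interferon gamma. Ciita binds no DNA itself: it docks on a complex of RFX, CREB and NF-Y proteins that sits on the X and Y boxes of class II promoters, and its own level largely sets how much of the set is transcribed.

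The promoter windows below are shown because the X and Y boxes are what the class II genes have in common as targets of Ciita. They run from -140 to -11, counted from the annotated transcription start (+1, with no position 0), 5′ to 3′ on the gene's strand, in the RefSeq sequence of build GRCm38.p6. Capitals mark an X core (AGNAACNNA), a Y core (ATTGG) on the gene's strand and a cyclic AMP response element (TGACGTCA). The last 2 entries, H2-Eb2 and H2-Ob, are further class II chain genes set beside the members.
H2-Aa (chr17:34287834-34287963, minus strand): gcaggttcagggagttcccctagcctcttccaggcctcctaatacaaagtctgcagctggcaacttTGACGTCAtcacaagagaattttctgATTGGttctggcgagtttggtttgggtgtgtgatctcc
H2-Eb1 (chr17:34305727-34305856, plus strand): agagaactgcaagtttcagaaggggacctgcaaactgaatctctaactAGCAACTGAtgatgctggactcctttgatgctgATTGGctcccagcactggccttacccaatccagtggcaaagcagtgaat
H2-Oa (chr17:34092239-34092368, plus strand): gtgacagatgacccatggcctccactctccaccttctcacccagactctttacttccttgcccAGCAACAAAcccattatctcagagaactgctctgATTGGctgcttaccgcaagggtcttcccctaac
H2-Eb2 (chr17:34325535-34325664, plus strand): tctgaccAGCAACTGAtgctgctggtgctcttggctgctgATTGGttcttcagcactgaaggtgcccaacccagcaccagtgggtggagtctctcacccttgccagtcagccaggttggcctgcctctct
H2-Ob (chr17:34238765-34238894, plus strand): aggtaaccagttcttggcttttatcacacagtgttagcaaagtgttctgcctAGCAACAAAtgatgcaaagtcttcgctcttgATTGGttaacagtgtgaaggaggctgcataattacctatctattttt
H2-Eb1 has the X core at -92 to -84 and the Y core at -59 to -55, with a second Y core on the other strand at -35 to -31 left in lower case. H2-Eb2 has the identical X core letters at -133 to -125 with its Y core at -100 to -96. An X core with other letters (AGCAACAAA) and a Y core stand at -88 to -80 and -57 to -53 in H2-Ob. The same letters stand at -77 to -69 and -43 to -39 in H2-Oa. Outside the stretches printed, further X core matches lie at -4 to 5 in H2-Oa (other strand) and at -10 to -2 in H2-Eb2. H2-Aa holds no X core by these letters. It has the response element at -74 to -67 and the Y core at -48 to -44. Of the 2 annotated starts of H2-DMa, a single window holds a Y core (-198 to -194) and neither holds an X core. Searched on both strands, the X core occurs in 16.9% of all 32851 promoter windows of 300 bases, the response element in 1.79% and the Y core in 37.4%. An X core followed after 10 to 30 bases by a Y core on the same strand occurs in 90 windows (0.274%). Where the X core must be followed by TG, as in H2-Eb1, H2-Eb2 and H2-Ob but not in H2-Oa, the pair occurs in 4 windows (0.0122%), those of these 3 genes and H2-DMb1. The letters were chosen with the class II windows in view, no marked motif overlaps another in the windows shown, and a match is not evidence of binding. Windows of 4 of the 7 genes (H2-Aa, H2-Eb1, H2-Oa and H2-DMa) were used.

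The deposited values are log2 levels, with array medians between 7.79 and 7.90, and pairs of arrays correlated at 0.961 to 0.986 within groups and 0.963 to 0.985 between them. Of 14 genes that ERK signalling induces, 13 had lower and 1 had higher mean values with PD-0325901 (median difference -0.42, against -0.01 over all genes). Over all genes, 46.0% had higher mean values with the drug. Hbegf, a growth factor, differed by -1.27 (SE 0.21), the transcription factor Egr1 by -0.89 (SE 0.33), the phosphatase Dusp6 by -0.76 (SE 0.29) and the inhibitor Spry2 by 0.18 (SE 0.24). None of the 14 passed limma's test after adjustment over all genes, and 7 were lower at an unadjusted p under 0.05, as were 4.14% of all genes. This list was also chosen with earlier results known, so its counts are descriptions. Of 8 Schwann cell markers 6 were measured, over all arrays at 7.85 to 8.17 (Sox10), 7.12 to 7.32 (S100b), 7.25 to 7.56 (Erbb3), 8.38 to 8.68 (Ngfr), at most 7.34 (Cdh19) and 7.66 to 9.68 (Gap43). With PD-0325901, 5 of the 6 had higher and 1 lower means (median 0.02), with Gap43 at 1.14 (SE 0.44) and Cdh19 at 1.01 (SE 0.41). No detection calls are used here, so these levels do not show whether the tumours express the lineage genes.

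Ciita had log2 levels of 9.24 and 8.79 on the combination arrays and 9.06 and 9.15 on the PD-0325901 arrays, against 7.90 and 8.03 on the rapamycin arrays and 8.11 and 7.95 on the vehicle arrays. All 4 arrays with PD-0325901 stood above all 4 without it, with a gap of 0.68 between the nearest arrays. PD-0325901 exceeded vehicle by 1.07 (SE 0.17) and the combination exceeded rapamycin by 1.05 (SE 0.17), differences that share no array. Their mean, called the PD-0325901 main effect, was 1.06 (SE 0.12), a 2.09-fold higher level, and 80 of the 19938 genes (0.401%) had a larger one. In bulk tumour RNA, more cells that express a gene and more of its RNA per cell cannot be told apart, which holds for every level given here.

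**Figure D1:**
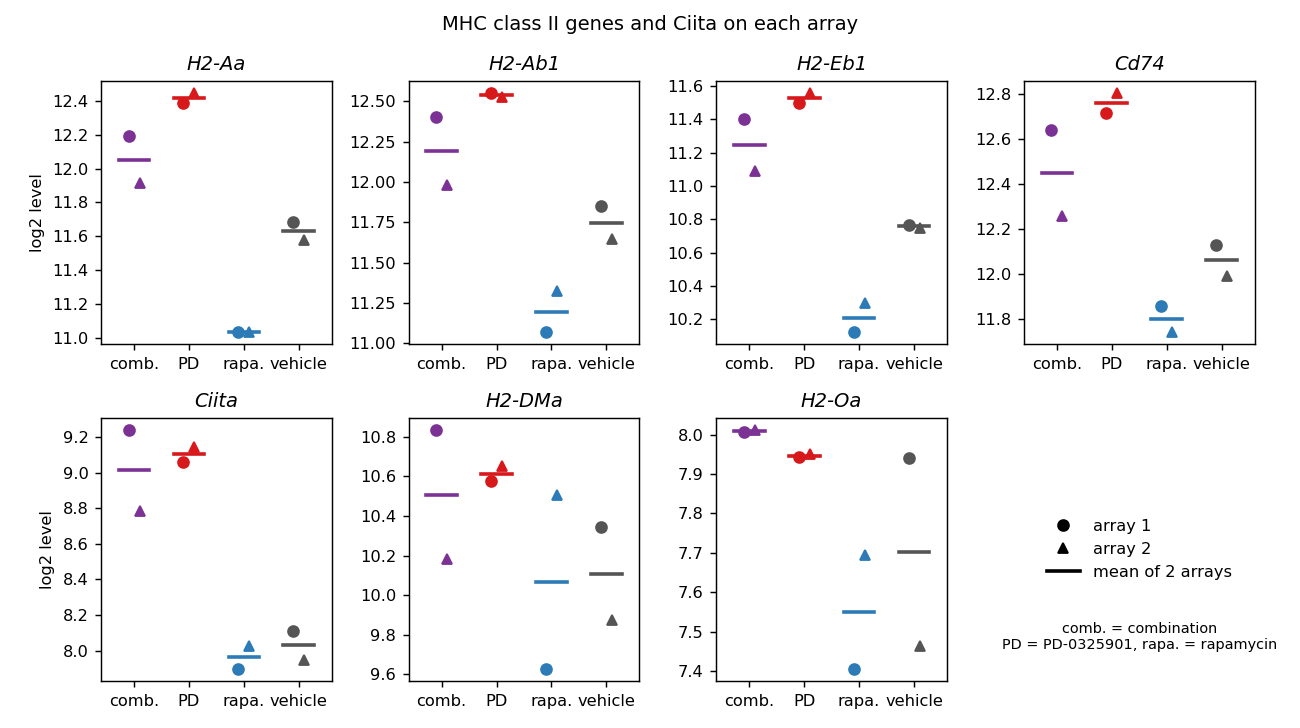
Log2 level (vertical axis) of each of the 7 genes on every array, by group (combination, PD-0325901, rapamycin and vehicle from left to right), with circles for array 1, triangles for array 2 and a line at the mean of the 2 arrays. Each panel has its own axis range. For Ciita the 4 arrays with PD-0325901 lie between 8.79 and 9.24 and the other 4 between 7.90 and 8.11, while for H2-DMa the groups overlap.

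The genes of the classical class II chains had one shared order of groups: PD-0325901 highest, then the combination, then vehicle, then rapamycin. H2-Aa, the alpha chain of the I-A molecule, had levels of 12.19 and 11.91 with the combination, 12.38 and 12.45 with PD-0325901, 11.03 and 11.03 with rapamycin and 11.68 and 11.58 with vehicle. H2-Ab1, the beta chain of I-A, had 12.40 and 11.98 with the combination, 12.55 and 12.52 with PD-0325901, 11.07 and 11.32 with rapamycin and 11.85 and 11.65 with vehicle. H2-Eb1, the beta chain of the I-E molecule, had 11.40 and 11.09 with the combination, 11.50 and 11.56 with PD-0325901, 10.12 and 10.30 with rapamycin and 10.77 and 10.75 with vehicle. For each of these chains no array of any group overlapped an array of another group. The share of all genes with such a separation was not counted, so nothing is read from it. The PD-0325901 main effects were 0.90 (SE 0.09) for H2-Aa, 0.89 (SE 0.13) for H2-Ab1 and 0.90 (SE 0.10) for H2-Eb1, about 1.87-fold, and 153 to 166 genes had a larger one. The difference without rapamycin was 0.79 (SE 0.12) for H2-Aa, 0.79 (SE 0.18) for H2-Ab1 and 0.77 (SE 0.14) for H2-Eb1. In the presence of rapamycin it was 1.02 (SE 0.12), 0.996 (SE 0.18) and 1.04 (SE 0.14) for the same 3 genes.

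Cd74, the invariant chain that holds the peptide groove closed and guides class II molecules to the endosome, had levels of 12.64 and 12.26 with the combination, 12.72 and 12.80 with PD-0325901, 11.86 and 11.74 with rapamycin and 12.13 and 11.99 with vehicle. It kept the order of the chain genes, again with no overlap between any groups (share of all genes not counted). Its PD-0325901 main effect was 0.67 (SE 0.11), or 1.59-fold, with 0.70 (SE 0.15) against vehicle and 0.65 (SE 0.15) for the combination against rapamycin.

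The peptide loading genes had smaller differences. H2-DMa, a chain of the DM molecule that exchanges the invariant chain peptide for antigen, had levels of 10.84 and 10.18 with the combination, 10.58 and 10.65 with PD-0325901, 9.63 and 10.51 with rapamycin and 10.34 and 9.87 with vehicle. The combination and rapamycin arrays overlapped. Its main effect was 0.47 (SE 0.25), or 0.25 without rapamycin array 1 and 0.69 without rapamycin array 2. PD-0325901 exceeded vehicle by 0.51 with all arrays, 0.74 without vehicle array 1 and 0.27 without vehicle array 2. The combination exceeded rapamycin by 0.44 with all arrays but by 0.88 without rapamycin array 2 and by 0.00 without rapamycin array 1. H2-Oa, a chain of the DO molecule that restrains DM, had 8.01 and 8.01 with the combination, 7.94 and 7.95 with PD-0325901, 7.41 and 7.69 with rapamycin and 7.94 and 7.46 with vehicle. PD-0325901 array 1 and vehicle array 1 differed by 0.003 for this gene. Its main effect was 0.35 (SE 0.13), and the difference of PD-0325901 from vehicle was 0.24 with all arrays, 0.48 without vehicle array 1 and 0.01 without vehicle array 2.

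With PD-0325901, 6 of the 7 genes were higher on all 4 arrays than on the 4 without it, where 3.34% of all genes were. The exception was H2-DMa. Both PD-0325901 arrays were above both vehicle arrays for 7 of 7 genes (17.6% of all genes), and both combination arrays above both rapamycin arrays for 6 of 7 (16.0%). The median main effect was 0.89 over the 7 genes and -0.01 over all genes. Since the genes were chosen with these values known, nothing is read from the counts. In the limma fit of 4 group means 0% of the 19938 genes passed an adjusted p of 0.05 for the PD-0325901 main effect, and 1090 (5.47%) were higher at an unadjusted p under 0.05. When the 4 arrays with the drug were fitted as a single group against the other 4, 22 genes passed (0.110%). No call is given for the 7 genes in that fit, since their values with the drug led to their choice. The count was 65 without rapamycin array 1 and 0 to 7 without any other single array.

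**Figure D2:**
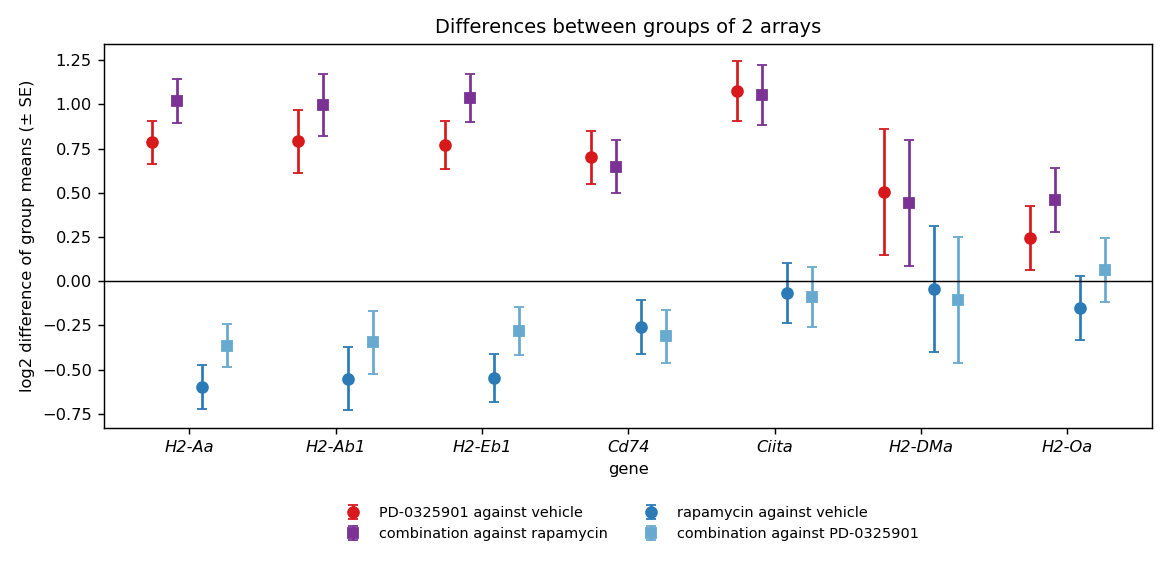
Log2 difference of group means (vertical axis, with limma's SE as bars) for each gene, for the comparisons of PD-0325901 with vehicle, the combination with rapamycin, rapamycin with vehicle and the combination with PD-0325901, each of 2 arrays against 2. The first pair lies above 0 for all 7 genes. For H2-Aa, H2-Ab1, H2-Eb1 and Cd74 the second pair lies below 0, from -0.60 to -0.26, and for Ciita it lies at -0.07 and -0.09.

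Rapamycin was set against its absence to ask whether mTORC1 inhibition moves the same genes. These comparisons are other contrasts than those known to have led to the choice, so they were tested. They use arrays that the earlier results also used, so their p-values and counts may not be independent of the choice. The chain genes and Cd74 were lower with rapamycin whether or not PD-0325901 was present, but none passed adjustment over all genes. H2-Aa differed by -0.60 between rapamycin and vehicle (SE 0.12, 95% interval -0.90 to -0.30, limma adjusted p = 0.9638) and by -0.36 between the combination and PD-0325901 (SE 0.12, interval -0.66 to -0.06, adjusted p = 0.9998). The mean of these, the rapamycin main effect, was -0.48 for H2-Aa (SE 0.09, unadjusted p = 0.0015, limma adjusted p = 0.7523), a level of 0.717 times that without rapamycin. H2-Ab1 had a main effect of -0.45 (SE 0.13, unadjusted p = 0.0116, adjusted p = 0.7561), H2-Eb1 of -0.41 (SE 0.10, unadjusted p = 0.0049, adjusted p = 0.7523) and Cd74 of -0.29 (SE 0.11, unadjusted p = 0.0363, adjusted p = 0.8638). The smallest adjusted p of any gene for this effect was 0.7523. At an unadjusted p under 0.05, 4 of the 7 genes were lower with rapamycin, beside 478 of all genes (2.40%). The main effect was below 0 for 7 of 7 genes, as it was for 53.8% of all genes. At the same unadjusted threshold, 3 of 7 genes were lower with rapamycin than with vehicle (2.15% of all genes), and 1 of 7, H2-Aa, lower with the combination than with PD-0325901 (1.27%).

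For Ciita the rapamycin main effect was -0.08 (SE 0.12, limma adjusted p = 0.9527), with a 95% interval of -0.37 to 0.21. Thus an effect of the size measured for H2-Aa lies outside that interval, and one as large as that of Cd74 lies inside it. The effect was -0.07 (SE 0.25, interval -0.69 to 0.54) for H2-DMa and -0.04 (SE 0.13, interval -0.36 to 0.27) for H2-Oa. Whether the rapamycin effect differs between Ciita and the chain genes was not tested.

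Both rapamycin arrays lay below both vehicle arrays for H2-Aa, H2-Ab1, H2-Eb1 and Cd74, 4 of 7 genes beside 17.9% of all genes. For the same 4 genes both combination arrays lay below both PD-0325901 arrays (18.2% of all genes). Of the arrays with PD-0325901, combination array 2 was the lowest for 6 of the 7 genes. Without it the combination differed from PD-0325901 by -0.22 for H2-Aa, against -0.36 with all arrays, by -0.13 for H2-Ab1 (-0.35 with all arrays), by -0.13 for H2-Eb1 (-0.28) and by -0.12 for Cd74 (-0.31). Without combination array 1 the same differences were -0.50 for H2-Aa, -0.56 for H2-Ab1, -0.44 for H2-Eb1 and -0.50 for Cd74. The difference between rapamycin and vehicle does not involve that array. It was -0.65 to -0.54 for H2-Aa, -0.68 to -0.42 for H2-Ab1, -0.63 to -0.46 for H2-Eb1 and -0.33 to -0.19 for Cd74 when single arrays were left out.

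The interaction asks whether PD-0325901 acts differently with rapamycin present. Among the 7 genes it was highest for H2-Eb1, at 0.27 (SE 0.19, 95% interval -0.20 to 0.73, limma adjusted p = 0.9999; 0.11 without combination array 1 and 0.42 without combination array 2), and lowest for H2-DMa, at -0.06 (SE 0.50, interval -1.30 to 1.17). For Ciita it was -0.02 (SE 0.24, interval -0.61 to 0.57). No gene on the array passed adjustment (0%), with 206 higher (1.03%) and 228 lower (1.14%) at an unadjusted p under 0.05, none of them among the 7. Set against vehicle, the combination gave 0.99 for Ciita (SE 0.17), where PD-0325901 alone gave 1.07 and rapamycin alone -0.07. For H2-Aa the combination gave 0.42 (SE 0.12), PD-0325901 alone 0.79 and rapamycin alone -0.60. All 3 comparisons share the vehicle arrays.

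The other genes of the class II pathway were taken from lists chosen with earlier results known, and none of their members passed limma's test for the PD-0325901 main effect after adjustment over all genes. Of 15 further chain and peptide loading genes 11 were measured, and all 11 had higher means with PD-0325901 (median 0.30; 46.0% of all genes had higher means). At an unadjusted p under 0.05, 7 of the 11 were higher, beside 5.47% of all genes. Given how the lists were chosen, their counts and p-values for PD-0325901 are descriptions, and nothing is read from them. Cathepsin H (Ctsh), an endosomal protease, had levels of 11.23 and 11.13 with the combination, 11.52 and 11.46 with PD-0325901, 10.44 and 10.37 with rapamycin and 10.75 and 10.28 with vehicle. Its main effect was 0.88 (SE 0.12, adjusted p = 0.1411). Cathepsin S (Ctss), which cuts the invariant chain, differed by 0.52 (SE 0.07, adjusted p = 0.1411), and Ifi30, a thiol reductase that unfolds antigen, by 0.49 (SE 0.27, adjusted p = 0.6637). All 4 arrays with the drug stood above the other 4 for 5 of the 11 genes, beside 3.34% of all genes. These were Ctsh, Ctss, Marchf1, H2-Ob and Ctsd, named after their values were seen. The rapamycin main effect was below 0 for 9 of the 11 genes (median -0.10, where 53.8% of all genes were below 0), and 2 had an unadjusted p under 0.05: Ctss at -0.21 (adjusted p = 0.8441) and H2-Eb2 at -0.29 (adjusted p = 0.8625), the last named after its values were seen. For H2-Ea, the alpha chain of I-E, which the reference annotation lists as a pseudogene, the levels lay between 6.09 and 6.32 on all 8 arrays.

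Of the 7 genes for the proteins that Ciita docks on, 5 had higher and 2 lower means with PD-0325901 (median 0.05). Rfxank and Rfx5, subunits of RFX, differed by 0.42 (SE 0.12, adjusted p = 0.3559) and 0.27 (SE 0.10, adjusted p = 0.4615). The NF-Y subunits differed by 0.16 (Nfya, SE 0.09), -0.08 (Nfyc, SE 0.08) and -0.23 (Nfyb, SE 0.11), none of them past an unadjusted p of 0.05.

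Among regulators of Ciita, 15 of 16 were measured, with 10 higher and 5 lower (median 0.11). Irf8, a transcription factor of myeloid and dendritic cells, had levels of 10.63 and 10.59 with the combination, 10.46 and 10.81 with PD-0325901, 9.95 and 9.89 with rapamycin and 10.02 and 9.73 with vehicle. Its main effect was 0.73 (SE 0.11, adjusted p = 0.1552), and its rapamycin main effect 0.01. Irf4, a factor of activated lymphocytes and dendritic cells, differed by 0.53 (SE 0.23, adjusted p = 0.5610). Irf1, which acts on the interferon-inducible promoter of Ciita, differed by 0.33 (SE 0.23, adjusted p = 0.7633), and Ifng, interferon gamma itself, named after its values were seen, had levels between 7.05 and 7.32 on all arrays. Lowest in the list were Tgfb1, a cytokine that represses Ciita (-0.24, SE 0.14), Prdm1, a transcriptional repressor of Ciita (-0.14, SE 0.25), and the interferon gamma receptor chain Ifngr2 (-0.10, SE 0.15).

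The costimulation list had higher means with PD-0325901 for 6 of 6 genes (median 0.41), beside 46.0% of all genes. It holds the ligands Cd80, Cd86 and Icosl, the receptor Cd40, and also the inhibitory ligands Cd274 and Pdcd1lg2. These last 2 differed by 0.31 (Cd274, SE 0.30) and 0.17 (Pdcd1lg2, SE 0.13). Cd86, a ligand of CD28, differed by 0.69 (SE 0.16, adjusted p = 0.2670), Cd40 by 0.56 (SE 0.15, adjusted p = 0.3279) and Icosl by 0.52 (SE 0.13, adjusted p = 0.2997). Cd86 had a rapamycin main effect of -0.44 (SE 0.16, unadjusted p = 0.0320, limma adjusted p = 0.8638). For that effect 5 of the 6 genes were below 0, beside 53.8% of all genes. In the class I pathway, which presents cytosolic peptides, 8 of 8 measured genes had higher means (median 0.30), beside 46.0% of all genes. Among them were the transporter subunit Tap1 (0.67, SE 0.26) and the immunoproteasome subunits Psmb8 (0.59, SE 0.16) and Psmb9 (0.54, SE 0.13). For none of the 8 did all 4 arrays with the drug stand above the other 4, where 3.34% of all genes had this order. Rapamycin main effects in this list had a median of 0.02, where the 7 class II genes had a median of -0.29.

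**Figure D3:**
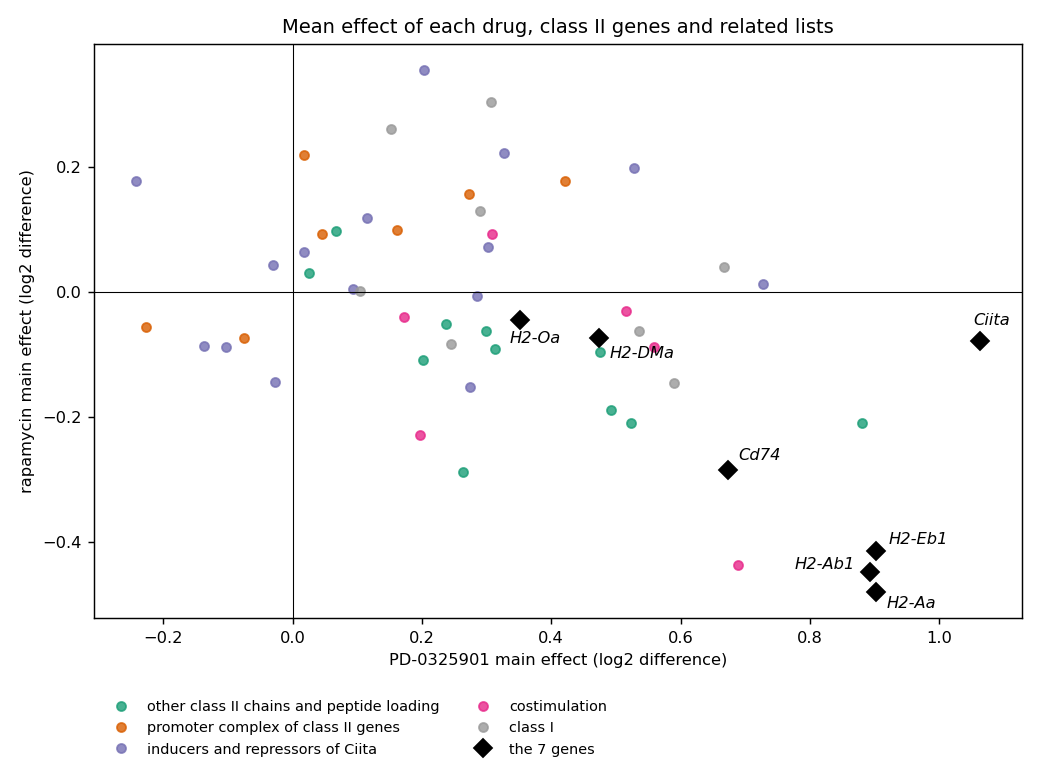
PD-0325901 main effect (horizontal axis) against rapamycin main effect (vertical axis), both as log2 differences, for the 7 genes (diamonds) and the genes of 5 related lists (circles, coloured by list), 1 point per gene. H2-Aa, H2-Ab1 and H2-Eb1 lie together at the lower right, with PD-0325901 effects of 0.89 to 0.90 and rapamycin effects of -0.48 to -0.41, and Ciita lies at 1.06 and -0.08.

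Markers of cells that carry class II were measured beside these genes. The counts of higher means in each marker list below stand beside a share of 46.0% over all genes. Over all leukocytes, 5 of 5 markers had higher means with PD-0325901 (median 0.48), with Ptprc, the pan-leukocyte phosphatase CD45, at 0.65 (SE 0.16), Cd53 at 0.60 (SE 0.13) and Cd52 at 0.48 (SE 0.23). The mean level of this list ran from 11.07 to 11.14 with the combination, 11.08 to 11.24 with PD-0325901, 10.43 to 10.61 with rapamycin and 10.50 to 10.98 with vehicle. Its part in the differences of the class II genes was not tested.

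Of 13 macrophage markers 12 had higher and 1 lower means (median 0.37), with the receptors Mertk at 0.90 (SE 0.25), Fcgr1 at 0.84 (SE 0.12) and Adgre1 at 0.63 (SE 0.10), and the integrin chain Itgam at -0.15 (SE 0.24). The list's mean level was 11.52 and 11.04 on the combination arrays, 11.46 and 11.51 on the PD-0325901 arrays, 10.94 and 10.98 on the rapamycin arrays and 11.08 and 10.86 on the vehicle arrays. Combination array 2, the lowest of the arrays with PD-0325901 for 6 of the 7 class II genes, was also the lowest of them for this list. On combination arrays 1 and 2, Mrc1 had 11.58 and 10.12 and Cd163 had 8.26 and 7.08. Mertk, Fcgr1 and Cx3cr1 were instead lowest on other arrays with PD-0325901. These genes were picked out after their values were seen, and a link between the list and the class II genes was not tested. For every other marker list a different array with PD-0325901 was lowest. Combination array 2 was the highest of all arrays for the T and NK cell list (8.65) and the plasmacytoid dendritic cell list (9.29). The rapamycin arrays, lowest for the class II chains, lay between the vehicle arrays for the mean of the macrophage list.

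Of 10 conventional dendritic cell markers 8 had higher and 2 lower means (median 0.51). The lectins Clec10a and Clec9a differed by 1.24 (SE 0.34) and 0.92 (SE 0.24), and Flt3, the growth factor receptor of dendritic cell precursors, by 0.77 (SE 0.11), while Itgax differed by -0.51 (SE 0.39) and Zbtb46 by -0.06 (SE 0.07). The list's mean level was 8.19 and 8.05 with the combination, 8.03 and 8.64 with PD-0325901, 7.79 and 7.77 with rapamycin and 7.93 and 7.59 with vehicle.

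Of 6 measured B cell markers 2 had higher and 4 lower means (median -0.02). Cd79b and Cd22 differed by 0.72 (SE 0.18) and 0.67 (SE 0.11), and Cd79a, Blk and Ms4a1 by -0.13 (SE 0.12), -0.07 (SE 0.08) and -0.02 (SE 0.11). T and NK cell markers are the list that holds the cells class II molecules signal to. They had higher means for 10 of 10 measured genes (median 0.71), beside 46.0% of all genes. List levels were 7.87 and 8.65 with the combination, 7.73 and 8.38 with PD-0325901, 7.12 and 7.13 with rapamycin and 7.76 and 7.33 with vehicle. No marker in any of these lists passed adjustment for the PD-0325901 main effect.

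Of 5 plasmacytoid dendritic cell markers 4 had higher and 1 lower means with PD-0325901 (median 0.22). The lectin Siglech differed by 0.54 (SE 0.08), the receptor Cd300c by 0.44 (SE 0.07), Bst2 by 0.22 (SE 0.24) and the transcription factor Tcf4 by -0.10 (SE 0.13). Endothelial markers ran the other way, with lower means for 6 of 6 genes (median -0.58), 4 of them at an unadjusted p under 0.05, beside 4.14% of all genes. Among them Flt1, a receptor of vascular growth factors, differed by -0.73 (SE 0.22), the surface glycoprotein Emcn by -0.67 (SE 0.18) and the cadherin Cdh5 by -0.65 (SE 0.18). The marker lists were chosen with earlier results known, so their counts are descriptions. The mean level of the endothelial list was 9.30 and 9.34 with the combination, 9.20 and 9.69 with PD-0325901, 10.28 and 9.86 with rapamycin and 9.99 and 9.47 with vehicle.

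With rapamycin, beside 53.8% of all genes below 0, the main effect was below 0 for 5 of 5 leukocyte markers (median -0.11), 11 of 13 macrophage markers (median -0.08), 8 of 10 conventional dendritic cell markers (median -0.11), 7 of 10 T and NK cell markers (median -0.08) and 5 of 6 B cell markers (median -0.08). It was below 0 for 2 of 5 plasmacytoid dendritic cell markers (median 0.00), 2 of 6 endothelial markers (median 0.11) and 5 of 6 Schwann cell markers (median -0.08). None of these markers passed adjustment for this effect, and 2 had an unadjusted p under 0.05. These were Fcgr1 at -0.32 (SE 0.12, limma adjusted p = 0.8638) and Cd22 at -0.56 (SE 0.11, limma adjusted p = 0.7523). Both rapamycin arrays lay below both vehicle arrays for the means of the T and NK cell, plasmacytoid dendritic cell and Schwann cell lists. They did not for the other marker lists. Of single genes, 17.9% had this order, the class II chains among them. What the marker lists contribute to the differences of the class II genes, with either drug, was not tested.

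**Figure D4:**
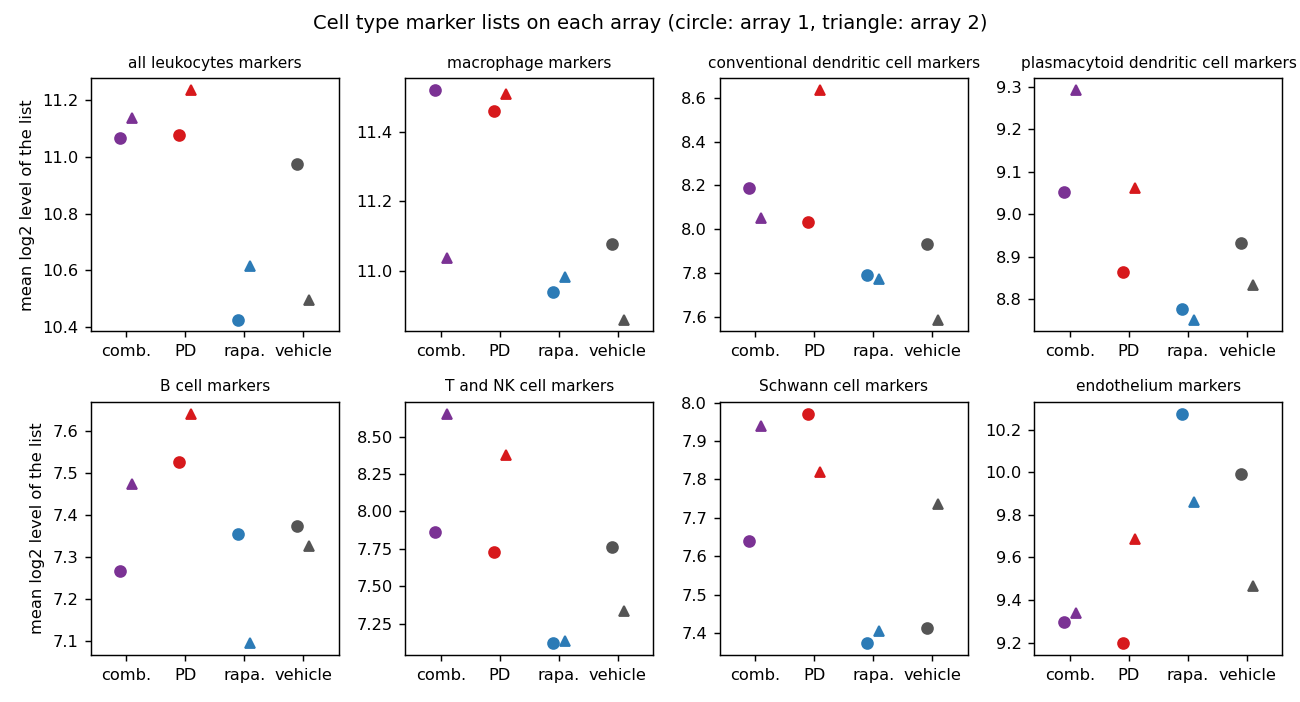
Mean log2 level of each cell type marker list (vertical axis, own range in each panel) on every array, by group (combination, PD-0325901, rapamycin and vehicle from left to right), with circles for array 1 and triangles for array 2. Leukocyte markers lie between 11.07 and 11.24 on the arrays with PD-0325901 and between 10.43 and 10.98 on the others, and macrophage markers on combination array 2 lie at 11.04.

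Across the 8 arrays the chain genes and Cd74 followed each other with Pearson correlations of 0.964 to 0.994, and Ciita followed them with 0.906 to 0.939. H2-DMa and H2-Oa followed these 5 genes with 0.651 to 0.803. All of these values rest on the same 8 arrays, which fall apart by PD-0325901. Outside the 7 genes, those most like Ciita over the 8 arrays were Ikbkb, a kinase of the NF-kB pathway (r = 0.994), Fgd2, an exchange factor for Cdc42 (0.989), Susd3 (0.983), the mitochondrial thymidine kinase Tk2 (0.983) and the transcriptional adaptor Lmo2 (0.979). Their rapamycin main effects lay between -0.04 and 0.00, and their PD-0325901 main effects between 0.40 and 0.76, below that of Ciita. The genes most like the mean of H2-Aa, H2-Ab1 and H2-Eb1 were Blvra, a biliverdin reductase (r = 0.971), Aoah, which inactivates lipopolysaccharide (0.971), the tetraspanin Tspan32 (0.969), the kinase Cdk9 (0.968) and the inflammasome sensor Nlrp1b (0.967). Among these, Aoah had a PD-0325901 main effect of 0.86 and a rapamycin main effect of -0.44, the nearest in size to the chain genes. These were picked from 19938 genes for their likeness, so the correlations are descriptions and carry no test.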

How the data were processed

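RNA of 8 tumour samples was measured on Affymetrix gene arrays. Per the labels' protocols, Trizol and RNeasy columns gave the total RNA, which was biotinylated after amplification by NuGEN Applause WT-Amp ST. The authors deposited log2 values, 1 per probe set and array. The scale was read from the values (3.36 to 14.36), and which software, background correction and normalization made them is not given in the sources used here.

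Of 35512 probe sets (1 empty), 21789 are annotated to 1 gene symbol, 1621 to several and 12101 to none. Each gene took its probe set with the highest mean, which left 19938 genes. The means of the 4 groups were modelled in limma 3.58.1 under R 4.3.3 (lmFit and eBayes, two-sided, 4 residual and 1.98 prior degrees of freedom), with Benjamini-Hochberg adjustment over all genes and a threshold of 0.05. A main effect is a drug's effect averaged over absence and presence of the other drug. The code was tested on simulated data. Groups and array numbers came from the sample titles. Precision is limited by how few arrays there are: the smallest exact permutation p is 0.333 for 2 against 2 and 0.0286 for 4 against 4.

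The members and gene lists were chosen with earlier results of these data known, so p-values of listed genes for PD-0325901 are descriptions. The naming rule took, from each list described, up to 3 genes with the highest and up to 3 with the lowest PD-0325901 main effect, and the 5 genes most like a member pattern by Pearson correlation. The alternatives were to leave out each array, centre arrays on their median, quantile-normalize, drop genes at or below the median level, average the probe sets of a gene, let the prior variance follow level robustly, block on array number, and call at 0.1. Promoter windows and gene positions are those of RefSeq, build GRCm38.p6, searched with Python 3.11.15.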

Additional observations from a re-analysis of the deposited data

How the results depend on the processing

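Over 14 alternatives (13 for H2-Oa, which is not above the median level) the direction of the PD-0325901 comparisons held for all 7 genes (291 values, of which 14 moved by more than the spread between replicates, each when 1 array was left out), and no member passed the test in a rapamycin comparison or for the interaction. The number of the 7 genes higher on all 4 arrays with PD-0325901 than on the other 4 was 6, or 5 with quantile normalization or median centring, and 6 to 7 without single arrays. Leaving out an array cannot lower this count. Without single arrays, the calls over all genes in limma's fit of 4 group means, 0 with all arrays, ran from 0 to 8 for the PD-0325901 main effect, 0 to 9 for PD-0325901 against vehicle and for the combination against vehicle, 0 to 15 for rapamycin against vehicle, and 0 to 2 for the rapamycin main effect and for the interaction. The fit of 4 arrays with PD-0325901 against 4 without, with 22 calls, gave 0 to 65 without single arrays, 4 with median centring, 12 with only genes above the median level, 6 with a robust prior that follows the level, 109 at a threshold of 0.1 and 0 with the array number as a replicate block. The cause was not tested.

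The array numbers were not treated as pairs in the main fits. Deviations of same-numbered arrays correlated at -0.278 to 0.183 between groups, with no reference spread to judge them by, so pairing was not settled.

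Values near 0 changed sign without single arrays. The interaction ran from -0.0072 to 0.42 for H2-Ab1, -0.24 to 0.14 for Cd74, -0.25 to 0.21 for Ciita, -0.50 to 0.38 for H2-DMa and -0.024 to 0.45 for H2-Oa. The rapamycin main effect ran from -0.19 to 0.035 for Ciita, -0.29 to 0.15 for H2-DMa and -0.16 to 0.074 for H2-Oa. Rapamycin against vehicle ran from -0.15 to 0.012 for Ciita, -0.48 to 0.40 for H2-DMa and -0.39 to 0.086 for H2-Oa, and the combination against PD-0325901 from -0.32 to 0.14 for Ciita and -0.43 to 0.22 for H2-DMa. The PD-0325901 main effect ran from -0.41 to 0.13 for Prdm1, -0.25 to 0.045 for Ifngr2, -0.075 to 0.44 for Spry2, -0.38 to 0.074 for Itgam, -0.12 to 0.071 for Ms4a1, -0.017 to 0.46 for Bst2, -0.24 to 0.032 for Tcf4, -0.024 to 0.078 for Ngfr (-0.0071 with median centring) and -0.058 to 0.018 for S100b. It kept its sign but ran from 0.20 to 0.78 for Ifi30, 0.28 to 0.78 for Irf4, 0.12 to 0.53 for Irf1, -0.37 to -0.12 for Tgfb1, -1.21 to -0.56 for Egr1, -0.88 to -0.14 for Itgax, 0.29 to 0.67 for Cd52, 0.67 to 1.62 for Gap43 and 0.52 to 1.49 for Cdh19.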
